A study of Homo sapiens with 4 samples.

Results

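Antisense long non-coding RNAs are transcripts that run against a protein-coding or other named gene, the sense partner, and carry that gene's symbol followed by AS. Of the 23615 genes in the deposited table, 425 had such a name, and 209 of them had at least 40 fragments summed over the 4 libraries. These 209 genes were chosen by their fragments in the table, and the sum mixes both groups, so it does not set the direction of a difference between them. For 200 of the 209, the gene named before AS was itself in the table, and these 200 pairs shared 198 partners, since ZNF32 and ZNF503 each had a pair of antisense genes.

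The libraries came from HEK293T, a human embryonic kidney cell line, made to express Flag-tagged SIRT7, a nuclear deacylase of the sirtuin family, from a construct. Total cellular RNA was the input group, with 2 libraries. RNA recovered with anti-Flag beads and released by proteinase K was the SIRT7 RIP group (RNA immunoprecipitation), also with 2 libraries. Both groups carried the tagged protein, both had ribosomal RNA removed, and the question is which RNAs were recovered with SIRT7. No pull-down from cells without the tag was analysed here, so RNA held by the beads is part of the RIP values. The labels do not say whether the line is a clone or whether libraries came from separate cultures, so p-values measure the spread between these libraries, which may be technical. The RNA was drawn from bulk lysates, in which more RNA per cell and more cells holding an RNA cannot be told apart.

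Antisense RNAs are known to act near the place where they are made: some open or close the chromatin of the sense gene, some pair with the sense RNA and change its splicing, stability or translation, and some come from a start site shared with the sense gene and fire the opposite way. Others leave their locus and act elsewhere in the cell, for example by holding microRNAs. Many stay in the nucleus, where SIRT7 is found, and are known for low abundance.

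Both groups held 17310753 to 25998032 fragments per library. SIRT7 itself took 0.15% of input fragments and 3.38% of RIP fragments, a check of the labels that includes any RNA of the construct. Vimentin (VIM) and keratin 18 (KRT18) were present in every library, the kidney factor PAX2 had 8 to 14 fragments, and CD3E and HBB, markers of T cells and red cells, had 0. Libraries were made with a directional kit, but the strand setting of the counting is not given in the sources used here. Fragments from a region where antisense and sense exons overlap can therefore not be assigned to a strand with certainty, and this holds for each pair of overlapping genes below.

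Shared start regions are shown first, for 4 antisense genes that differ widely from their partners in RIP recovery: UGDH-AS1 and PRR7-AS1, lower than their partners, and WWC2-AS2 and KTN1-AS1, higher. Each window runs from 250 bases before to 50 bases after the RefSeq start on GRCh38.p14, in the direction of the antisense gene, and capitals mark the bases that also lie in the start window of the sense gene on the opposite strand.
UGDH-AS1, chr4:39527589-39527888, plus strand, 101 shared bases: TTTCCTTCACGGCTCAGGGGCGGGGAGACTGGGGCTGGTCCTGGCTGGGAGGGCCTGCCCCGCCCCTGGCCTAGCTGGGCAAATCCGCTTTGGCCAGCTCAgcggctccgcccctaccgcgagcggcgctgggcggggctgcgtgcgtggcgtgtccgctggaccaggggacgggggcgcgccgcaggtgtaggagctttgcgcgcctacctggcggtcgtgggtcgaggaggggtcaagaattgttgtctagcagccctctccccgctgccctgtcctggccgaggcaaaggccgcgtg
PRR7-AS1, chr5:177447895-177448194, minus strand, 120 shared bases: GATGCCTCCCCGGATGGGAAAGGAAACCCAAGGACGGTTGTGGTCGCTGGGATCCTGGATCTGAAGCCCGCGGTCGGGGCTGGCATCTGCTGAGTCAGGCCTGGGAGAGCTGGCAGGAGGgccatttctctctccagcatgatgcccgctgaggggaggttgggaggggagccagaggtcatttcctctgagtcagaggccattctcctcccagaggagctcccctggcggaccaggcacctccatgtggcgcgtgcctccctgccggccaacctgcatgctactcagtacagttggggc
WWC2-AS2, chr4:183099150-183099449, minus strand, 157 shared bases: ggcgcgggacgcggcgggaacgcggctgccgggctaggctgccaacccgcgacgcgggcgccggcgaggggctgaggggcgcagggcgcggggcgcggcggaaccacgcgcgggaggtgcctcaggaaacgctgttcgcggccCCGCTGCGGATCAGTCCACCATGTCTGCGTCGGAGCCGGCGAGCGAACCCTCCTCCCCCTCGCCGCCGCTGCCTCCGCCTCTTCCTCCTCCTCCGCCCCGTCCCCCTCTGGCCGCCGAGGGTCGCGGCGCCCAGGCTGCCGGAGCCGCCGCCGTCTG
KTN1-AS1, chr14:55580043-55580342, minus strand, 214 shared bases: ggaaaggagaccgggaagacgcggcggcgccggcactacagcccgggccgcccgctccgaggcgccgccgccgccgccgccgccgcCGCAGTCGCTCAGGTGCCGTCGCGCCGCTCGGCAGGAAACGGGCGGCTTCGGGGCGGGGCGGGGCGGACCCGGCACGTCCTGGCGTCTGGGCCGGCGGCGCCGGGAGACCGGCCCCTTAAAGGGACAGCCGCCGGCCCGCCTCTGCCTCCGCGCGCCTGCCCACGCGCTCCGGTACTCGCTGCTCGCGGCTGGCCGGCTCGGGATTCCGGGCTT

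The start of UGDH-AS1 lay 400 bases from that of UGDH and the start of PRR7-AS1 381 bases from that of PRR7. The distances were 58 bases for WWC2-AS2 and 115 bases for KTN1-AS1. G and C made up 71.7% of the UGDH-AS1 window, 64% for PRR7-AS1, 79% for WWC2-AS2 and 80% for KTN1-AS1. GGGCGG, the GC box, was found on 1 or the other strand within the shared bases of UGDH-AS1, WWC2-AS2 and KTN1-AS1 and not in the PRR7-AS1 window. CCAAT and TATAAA were in none of the 4 windows on either strand.

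Of the 209 antisense genes, 158 had a RefSeq start window in the table used here, and 139 pairs had windows for both genes. In 51 of these pairs the windows shared bases on opposite strands, with starts that pointed away from each other in 50. The GC box was in 55.6% of the 198 windows of antisense genes. It was in 71% of the 69 windows of the antisense genes in the 51 pairs, and in 45% of all 35116 windows. CCAAT was in 26.8%, 21.7% and 34.6% of these windows, and TATAAA in 7.58%, 5.8% and 11.5%. The median GC content was 64.5%, 69.3% and 58.7%. A gene with several starts has several windows, so windows are not independent, and not each of the 69 need share bases with the partner. Windows were matched by RefSeq symbol or synonym. HNRNPU-AS1, HOXB-AS5 and CRYM-AS1 stood under HNRNPU, PRAC2 and ABCA15P, so any windows counted for them are those of these RefSeq genes.

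Relative to the typical gene, antisense RNAs lay both above and below their input level in SIRT7 RIP. Of the 209, 66 were higher in RIP (31.6%, against 38.0% of all 14555 genes tested), 61 were lower (29.2%, against 39.7%) and 82 were not called. These calls come from edgeR's quasi-likelihood test at an adjusted p of 0.05, with library sizes scaled by TMM, which sets the typical gene near 0. The median log2 fold change, RIP over input, was 0.13 for the antisense genes and -0.03 for all genes, with quartiles of -0.85 and 0.79 and a range of -3.75 to 2.58. Among the called antisense genes, 37 were past 2-fold upward and 43 downward, a share that was not counted over all genes. The quartiles of all genes were -0.80 and 0.71, with a range of -9.64 to 9.72. In 89 genes both RIP libraries lay above both input libraries (against 43.7% of all genes), and in 80 both lay below (against 45.5%). With library totals in place of TMM, the median of all genes moved to -0.76 and the antisense calls to 24 higher and 111 lower, beside 2479 and 9539 of all 14555 genes, so directions below are relative to the typical gene. All 209 passed the filter on low counts, but 34 had at least 10 fragments in both libraries of a single group. Among the 34, ZRANB2-AS1, SLC7A11-AS1, EPN2-AS1, AP4B1-AS1, ZNRF3-AS1, PSMD6-AS2 and ITPK1-AS1 reached this in input alone. WWC2-AS2 and KCNJ2-AS1 reached it in RIP alone. The values of such genes are given as a description.

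**Figure D1:**
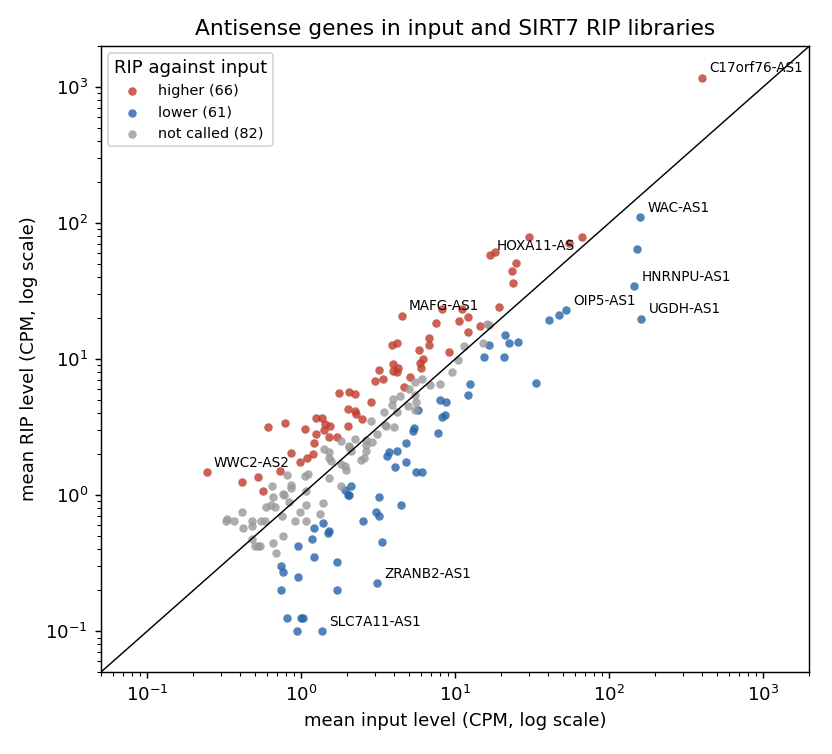
Each point is 1 of the 209 antisense genes, placed by its mean level over 2 input libraries (horizontal, CPM, log scale) and over 2 RIP libraries (vertical, CPM, log scale), with a line of equal levels and colours for the 66 genes called higher, the 61 called lower and the 82 not called. C17orf76-AS1 stands alone at the top, and UGDH-AS1 lies among the most abundant input RNAs but well under the line.

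The threshold of 40 fragments passed through genes of very low counts. Just inside it, DIAPH3-AS1 had 13 and 10 fragments in input and 3 and 14 in RIP, A2M-AS1 had 9 and 6 against 13 and 13, and FMR1-AS1 had 11 and 13 against 11 and 6. Just outside, CCDC74B-AS1 had 23 and 14 fragments in input and 1 and 0 in RIP, NEBL-AS1 had 3 and 9 against 15 and 12, and NPSR1-AS1 had 18 and 16 against 2 and 3. Of the 209 genes, 58 had fewer than 100 fragments in all and 36 had 1000 or more.

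C17orf76-AS1, now named SNHG29 and a host of small nucleolar RNAs, was by far the most abundant antisense gene and was recovered with SIRT7. Its level was 379 and 418 CPM in the input libraries and 1160 and 1170 CPM in the RIP libraries. Both RIP values lay far above both input values (log2 fold change 1.55, SE 0.072, adjusted p 2.189e-11 by edgeR). The log2 fold change was 0.82 with library totals and 0.28 after the length correction for this short gene (relative length 0.2705), both called higher. It made up 16.9% and 19.1% of all antisense fragments in input, against 41.9% and 42% in RIP. As shares of library totals without TMM, the antisense genes together took 0.291% and 0.279% of input fragments against 0.216% and 0.215% of RIP fragments. Without C17orf76-AS1 the shares were 0.241% and 0.226% against 0.125% and 0.125%. With library totals the median log2 fold change was -0.60 for the antisense genes and -0.76 for all genes. The partner of C17orf76-AS1 was in the table under another name, FAM211A, matched after the values were seen. FAM211A had 368 and 294 fragments in input against 188 and 158 in RIP (log2 fold change -0.75).

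Of the other 9 antisense genes among the 10 most abundant, 5 were lower and 4 higher. UGDH-AS1 read 185 and 139 CPM in input and 20.9 and 18.8 CPM in RIP. It was 8.17-fold lower with no overlap (log2 fold change -3.03, SE 0.12, adjusted p 4.619e-12). HNRNPU-AS1 read 158 and 133 CPM in input against 33 and 35.7 CPM in RIP, a log2 fold change of -2.09 with an adjusted p of 1.227e-11. RefSeq lists this name as a synonym of HNRNPU itself, so RefSeq does not hold it as a separate gene. FGD5-AS1, an RNA reported to bind microRNAs, had 148 and 154 CPM in input and 63.8 and 64.6 CPM in RIP (log2 fold change -1.23, adjusted p 2.237e-10). OIP5-AS1, the conserved RNA also called cyrano, had 52 and 52.7 CPM against 21.7 and 23.9 CPM (log2 fold change -1.20, adjusted p 3.626e-09). Within each of these 4 genes the RIP libraries were close together and below both input libraries. WAC-AS1 had 160 and 159 CPM in input and 110 in each RIP library, a log2 fold change of -0.53 (adjusted p 2.615e-06) that turned to 0.14 once gene length was taken into account.

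Among abundant antisense RNAs that were higher, ZNF503-AS2 had 30.4 and 29.6 CPM in input and 79.1 and 78 CPM in RIP (log2 fold change 1.39, adjusted p 1.689e-10). EPB41L4A-AS1, which also hosts a small nucleolar RNA, had 17.4 and 18.9 CPM against 61.1 and 60.4 CPM (log2 fold change 1.74, adjusted p 4.603e-11). TP73-AS1 had 54.5 and 54.6 CPM against 70.4 and 72.2 CPM, a log2 fold change of 0.39 that became -0.35 with library totals. RefSeq lists its name as a synonym of GFOD3P. PCNA-AS1 had 64.1 and 68.8 CPM against 81.6 and 76.4 CPM, a log2 fold change of 0.25 that became -0.48 with library totals and -1.89 after the length correction, and its adjusted p rose from 0.006784 to 0.09449 without RIP replicate 1. EPB41L4A-AS1 moved to 1.01 with library totals and to 0.72 after the length correction, and ZNF503-AS2 to 0.66 and 1.10.

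Beside EPB41L4A-AS1, the steepest gains were in genes outside the 10 most abundant, of which WWC2-AS2 reached 10 fragments in both libraries of RIP alone. WWC2-AS2 had 4 and 7 fragments in input and 31 and 28 in RIP (log2 fold change 2.58, SE 0.44, adjusted p 6.538e-05), and counting error alone allows a ratio of 3.2 to 13. IDH1-AS1 went from 16 and 12 fragments to 63 and 64 (log2 fold change 2.36), and NAPA-AS1 from 24 and 12 to 77 and 60 (log2 fold change 2.11). MAFG-AS1 went from 88 and 116 fragments to 423 and 410 (log2 fold change 2.21, adjusted p 1.202e-09), although RefSeq gives its name to a second gene, MILIP, as a synonym. HOXA11-AS went from 17 and 16.6 CPM to 60.6 and 55.2 CPM (log2 fold change 1.78, adjusted p 5.19e-11), FOXN3-AS1 from 1.74 and 1.81 CPM to 5.42 and 5.8 CPM, and RAB11B-AS1 from 3.87 and 3.98 CPM to 13.2 and 12 CPM. In each of these genes both RIP libraries lay above both input libraries. IDH1-AS1 and NAPA-AS1 are short, and after the length correction neither was called (adjusted p 0.1686 and 0.1657). FOXN3-AS1 moved from a log2 fold change of 1.66 to 0.53, RAB11B-AS1 from 1.68 to 0.50 and HOXA11-AS from 1.78 to 1.04, and these 3 were still called higher.

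Beside UGDH-AS1, the steepest losses were in genes with 18 or fewer RIP fragments. These genes reached 10 fragments in both libraries of input alone, so their adjusted p-values and order are a description. ZRANB2-AS1, opposite the splicing factor gene ZRANB2, had 68 and 73 fragments in input and 5 and 4 in RIP (log2 fold change -3.75, SE 0.37, adjusted p 1.553e-07). Its summed level was 13.8-fold lower, with an exact 95% counting interval of 7.05 to 30.7. SLC7A11-AS1, opposite a cystine transporter gene, had 31 and 31 fragments against 2 and 2, which is 13.6-fold lower with a counting interval of 5.06 to 51.5. EPN2-AS1 had 26 and 17 against 3 and 1, or 9.44-fold lower with an interval of 3.43 to 36.2. Its log2 fold change of -3.16 was -4.09 without RIP replicate 1 and -2.59 without RIP replicate 2. These wide intervals overlap, so the order among the genes is not settled. AP4B1-AS1 (8.67-fold lower, interval 4.19 to 20.8) and ZNRF3-AS1 (8.26-fold, 3.3 to 26.6) had 8 and 5 RIP fragments in all. PSMD6-AS2 had 78 and 74 fragments in input and 12 and 6 in RIP (log2 fold change -2.87, adjusted p 9.715e-07).

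Several well-known antisense RNAs differed in direction from each other. CDKN2B-AS1 (ANRIL), known for its link to Polycomb at the INK4 locus, fell from 8.12 and 7.37 CPM to 3.06 and 2.63 CPM (log2 fold change -1.44, adjusted p 2.137e-06). MCM3AP-AS1 fell from 6.84 and 5.29 CPM to 1.46 and 1.49 CPM (log2 fold change -2.04, adjusted p 5.721e-07). HIF1A-AS2 had 14.8 and 18.5 CPM in input and 12.5 and 12.8 CPM in RIP (log2 fold change -0.39, adjusted p 0.0093), a call that was lost without input replicate 2 (adjusted p 0.1553). TMPO-AS1 had 5.57 and 6.87 CPM against 9.13 and 11 CPM, with a log2 fold change of 0.69 that became -0.04 with library totals. TTN-AS1 (log2 fold change -0.21, adjusted p 0.1236) and ZEB1-AS1 (log2 fold change -0.20, adjusted p 0.3702) were not called. With library totals both were lower, at -0.94 (adjusted p 4.546e-06) and -0.93 (adjusted p 0.0005253). ZEB1-AS1 was also lower after the length correction (log2 fold change -0.57, adjusted p 0.01587), without input replicate 1 it was -0.47 (adjusted p 0.04633), and without input replicate 2 it was 0.13.

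Gene length moved with RIP recovery, in the antisense genes as in all genes. Length here is the effective length implied by each gene's fragments and FPKM, relative to the median gene. The median was 0.7136 for the antisense genes, 1.268 for their partners and 0.9946 for all genes. Among the antisense genes below their own median length, 48 were higher and 18 lower (median log2 fold change 0.46), and among those above it 18 were higher and 43 lower (median -0.31). The Spearman correlation of length with log2 fold change was -0.41 over the 209 antisense genes and -0.60 over all genes, where genes share the same 4 libraries. When the length trend of each library was removed, 30 antisense genes were higher (14.4%, against 33.4% of all genes) and 94 lower (45%, against 36.7%), and their median moved to -0.44, beside -0.05 for all genes. Of the calls, 57 lower and 29 higher were made under both fits, 8 genes went from higher to lower, and WAC-AS1 from lower to higher.

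**Figure D2:**
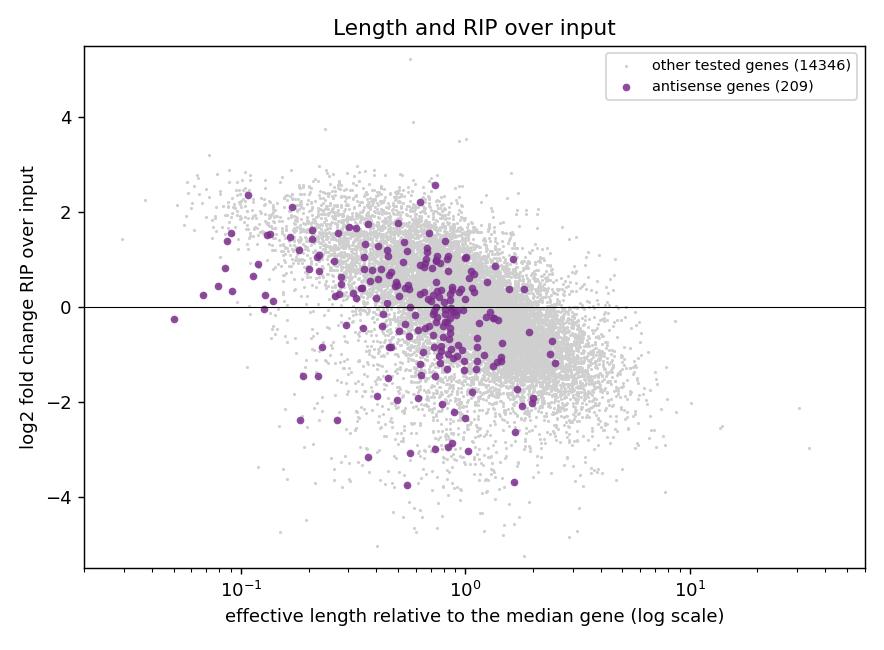
Effective length relative to the median gene (horizontal, log scale) is set against the log2 fold change of RIP over input (vertical) for the 209 antisense genes (purple) and the 14346 other tested genes (grey), with 23 genes outside the axes. Both clouds slope downward, and most antisense genes lie to the left of the median gene's length.

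Other non-coding classes were set beside the antisense genes by counts. Of 62 tested LINC-named genes, 18 were higher and 22 lower (29.0% and 35.5%), with a median log2 fold change of -0.11 that moved to -0.54 after the length correction, where 7 were higher and 33 lower. Of 8 tested intronic transcripts 6 were lower, with a median of -2.08. A list of 10 well-known non-coding RNAs without the suffix held KCNQ1OT1, TSIX, HOTAIR, HOTTIP, AIRN, ZFAS1, GAS5, DLEU2, JPX and FTX. Of these, 9 were tested, with 4 higher and 4 lower, and 2 higher and 4 lower after the length correction. Of all genes, 38.0% were higher and 39.7% lower before the correction. The 193 tested partners had 61 genes higher and 89 lower, with a median of -0.19 that became 0.01 after the length correction, where 73 were higher and 61 lower.

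The partners were sorted by the role of the sense protein, a sorting done after values were seen and given as a description. Of all genes tested, 38.0% were higher and 39.7% lower, and 33.4% and 36.7% after the length correction. No group was tested against these shares. Antisense genes opposite transcription factor and chromatin genes numbered 47, of which 18 were higher and 10 lower (median log2 fold change 0.28). ZNF503-AS2, HOXA11-AS and FOXN3-AS1 were among those higher. Opposite genes of RNA binding, processing and translation there were 16, with 4 higher and 6 lower (median -0.32), and ZRANB2-AS1 and HNRNPU-AS1 were among those lower. Opposite metabolic and mitochondrial genes there were 22, with 8 higher and 8 lower (median 0.24), IDH1-AS1 and UGDH-AS1 being the extremes of those named. Opposite genes of replication, cell cycle and protein degradation there were 12, with 4 higher and 7 lower (median -0.99), among them OIP5-AS1, MCM3AP-AS1 and PSMD6-AS2. Signalling, membrane, transport and cytoskeleton partners accounted for 57, with 13 higher and 19 lower (median -0.09). The remaining 55 had 19 higher and 11 lower (median 0.21), and they include the 9 antisense genes without a partner of that name. After the length correction more genes were lower than higher in each of these groups. The counts were 10 higher and 19 lower opposite transcription factor and chromatin genes (median -0.37), 4 and 10 opposite metabolic and mitochondrial genes (median -0.32) and 5 and 21 in the remaining group (median -0.25), so these 3 medians changed sign. They were 2 and 9 opposite RNA-binding genes (median -0.67), 2 and 9 opposite replication, cell cycle and degradation genes (median -1.78) and 7 and 26 opposite signalling, membrane, transport and cytoskeleton genes (median -0.66).

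The 8 antisense genes of the HOX clusters, which encode factors of body patterning, leaned upward before and not after the length correction. Of these, 6 were higher by edgeR and the other two were not called (median log2 fold change 1.21), beside 38.0% of all genes called higher. After the length correction 1 was higher and 1 lower, with a median of 0.05. HOXA11-AS was the 1 that stayed higher, at a log2 fold change of 1.04. HOXB-AS5 went from 22 and 26 fragments in input to 67 and 55 in RIP, HOXA-AS4 from 41 and 60 to 119 and 103, HOXD-AS2 from 91 and 89 to 198 and 168, and HOXC-AS5 from 38 and 28 to 68 and 66. In these 4 genes the groups did not overlap, and their relative lengths were 0.1343 to 0.4469. The name HOXB-AS5 is a synonym of PRAC2 in RefSeq. After the length correction none of the 4 was called, at log2 fold changes of -0.19, 0.27, -0.31 and 0.36 in that order. The HOXC-AS5 call was also lost with library totals (log2 fold change 0.48, adjusted p 0.09326). HOXB-AS3 had a log2 fold change of 0.65, which became -0.08 with library totals and -1.18 after the length correction. HOXA-AS3 and HOXD-AS1, the longest of the HOX antisense genes at 1.393 and 1.334, were not called at log2 fold changes of -0.27 and -0.24, which became 0.06 and 0.04 after the length correction. With library totals both were called lower, at -1.01 and -0.97. HOXA10 and HOXC13, the partners of HOXA-AS4 and HOXC-AS5 under their current names and matched after values were seen, had log2 fold changes of 0.59 and 0.48.

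Antisense and sense genes were then compared within each library, which removes the scaling between libraries. In 195 pairs both genes were tested. The antisense gene gained on its partner in both RIP libraries in 85 pairs (43.6%), lost in both in 79 (40.5%), and overlapped between groups in 31. These shares were near those of single genes, of which 43.7% lay above in both RIP libraries and 45.5% below. No such share was computed for other pairs of genes. The difference of the log2 fold changes, antisense minus sense, had a median of 0.04, quartiles of -0.88 and 1.01 and a range of -4.46 to 4.29, with 97 pairs below 0 and 98 above. No test was run for a single pair, where an exact permutation over these libraries could not reach p under 0.33, and the difference is given with the SE of both fits combined. The log2 fold changes of antisense and sense were weakly related across the pairs (Pearson r 0.11, Spearman rho 0.17, n = 195 pairs, which share libraries). Leaving out RIP replicate 1 gave a median difference of -0.05 and leaving out input replicate 1 gave 0.13, so its sign is not settled.

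**Figure D3:**
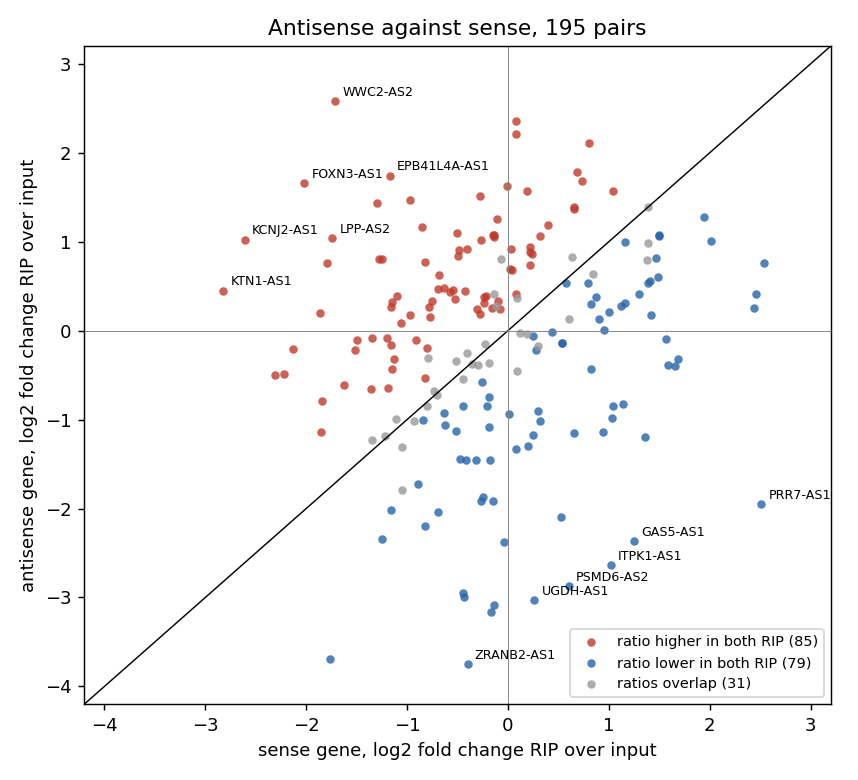
The log2 fold change of the sense gene (horizontal) is set against that of the antisense gene (vertical) for 195 pairs, with a line of equal change. Colours mark 85 pairs whose ratio was higher in both RIP libraries, 79 lower and 31 that overlapped, and the cloud has no clear slope.

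The relative length of the pair members moved with the difference. The antisense gene was the shorter in 148 pairs, where the median difference was 0.58, with 83 pairs gaining and 39 losing. Where the antisense gene was the longer, in 47 pairs, the median was -0.89, with 2 gaining and 40 losing. The log2 length ratio and the difference had a Spearman rho of -0.56 over 195 pairs. After the length correction the median difference was -0.45, with 129 pairs below 0 and 66 above. Per length, the antisense gene was usually the scarcer: it had a median of 1.642 FPKM in input against 7.767 FPKM for partners, and its FPKM exceeded that of the partner in 37 pairs in input and 41 in RIP.

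Of the 90 pairs where both genes were called, 58 went the same way and 32 opposite ways. Of all genes tested, 38.0% were higher and 39.7% lower, so opposite calls also arise in genes that are unrelated. Whether the calls within pairs were related was not tested. The antisense gene was lower and the sense gene higher in 13 pairs, and the reverse held in 19, while 26 pairs were both higher and 32 both lower. With library totals these opposite counts were 13 and 12 of 111, and after the length correction 30 and 6 of 85. The antisense gene was shorter in all 19 pairs of the second kind and longer in 10 of the 13 of the first. Both calls were kept after the length correction in 8 of the 13 and in 5 of the 19.

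UGDH-AS1 exceeded its partner in input and no longer did in RIP. UGDH, the enzyme that makes UDP-glucuronate, had 20.2 and 19.9 CPM in input and 21.9 and 26.2 CPM in RIP, a log2 fold change of 0.26 (adjusted p 0.03195) that became -0.47 with library totals. Per 100 fragments of UGDH there were 913 and 701 of UGDH-AS1 in input, and 95.6 and 71.8 in RIP. The difference was -3.29 (SE 0.16), and -3.39 after the length correction, since the genes are of like length. In FPKM, UGDH-AS1 stood at 54.1 ± 9.98 against 6.19 ± 0.0072 for UGDH in input (mean ± SD, n = 2) and at 6.71 ± 0.52 against 7.53 ± 0.94 in RIP. The gene bodies do not overlap in RefSeq.

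PRR7-AS1 had the widest fall against its partner among all 195 pairs. PRR7, a proline-rich membrane adaptor, rose from 7.61 and 7.82 CPM to 45.2 and 42.7 CPM (log2 fold change 2.51, adjusted p 4.999e-12), while PRR7-AS1 fell from 2.51 and 2.53 CPM to 0.703 and 0.595 CPM (log2 fold change -1.95, adjusted p 2.882e-05). Per 100 fragments of PRR7, PRR7-AS1 had 33 and 32.4 in input, against 1.55 and 1.39 in RIP. The difference of -4.46 (SE 0.32) was -4.30 after the length correction. Both directions were the same with library totals, at 1.78 and -2.67, although the bodies of these genes overlap.

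Other pairs lost on the antisense side too. ITPK1-AS1 had 22 and 15 fragments in input and 1 and 4 in RIP, and ITPK1, an inositol phosphate kinase, had 841 and 840 against 1475 and 1520 (difference -3.66, SE 0.63). The fall of ITPK1-AS1 rests on 5 RIP fragments, 6.5-fold with a counting interval of 2.55 to 21.2, and its log2 fold change of -2.64 was -1.99 without RIP replicate 1 and -3.86 without RIP replicate 2. GAS5-AS1 had 89 and 112 fragments against 19 and 15, while GAS5, a non-coding host of small nucleolar RNAs, had 3171 and 3111 against 6483 and 6613 (difference -3.62, SE 0.29). The GAS5 value of 1.25 became -0.36 after the length correction, and the difference stayed at -3.52. PSMD6-AS2 stood at a difference of -3.47 (SE 0.34) from PSMD6, a proteasome subunit gene whose log2 fold change of 0.60 became -0.25 after the length correction and -0.13 with library totals. ZRANB2-AS1 fell against ZRANB2 by a difference of -3.35 (SE 0.38), with both genes lower.

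HNRNPU-AS1 and OIP5-AS1 were further abundant antisense genes that were lower while their partners were higher. Per 100 fragments of HNRNPU, a nuclear RNA-binding protein gene, HNRNPU-AS1 had 14.1 and 12.1 in input and 2.05 and 2.24 in RIP (difference -2.61, SE 0.11). HNRNPU had a log2 fold change of 0.53 that became -0.20 with library totals. OIP5, which encodes a centromere factor, rose from 20.5 and 24.9 CPM to 56 and 60.7 CPM (log2 fold change 1.36, adjusted p 3.299e-09). Per 100 fragments of OIP5, OIP5-AS1 fell from 253 and 212 to 38.7 and 39.4 (difference -2.56, SE 0.13, and -2.10 after the length correction).

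In the 6 pairs with the widest gain on the antisense side, the partner was called lower. WWC2, a regulator in the Hippo pathway, fell from 43.5 and 39.7 CPM to 12.5 and 12.9 CPM (log2 fold change -1.71, adjusted p 1.956e-10). Per 100 fragments of WWC2, WWC2-AS2 had 0.391 and 0.796 in input, against 12.4 and 10.8 in RIP. The difference of 4.29 (SE 0.45) was 2.79 after the length correction. KTN1, the gene of the endoplasmic reticulum protein kinectin, fell from 208 and 193 CPM to 24.3 and 32.5 CPM (log2 fold change -2.82, adjusted p 2.778e-12). KTN1-AS1 had 1.57 and 1.45 CPM in input and 1.86 and 2.28 CPM in RIP and was not called (log2 fold change 0.45, adjusted p 0.1392, becoming -0.28 with library totals and -0.31 after the length correction). The difference between them was 3.27 (SE 0.29), and 1.98 after the length correction.

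FOXN3-AS1 lies inside its partner, the gene of a forkhead repressor. FOXN3 fell from 54.9 and 47.1 CPM to 11.8 and 13.3 CPM, and per 100 fragments of it FOXN3-AS1 had 3.17 and 3.84 in input, against 45.8 and 43.5 in RIP. The difference of 3.68 (SE 0.23) was 1.51 after the length correction. EPB41L4A-AS1, also inside its partner, a cytoskeletal band 4.1-like gene, had 132 and 164 per 100 fragments in input and 1194 and 1024 in RIP (difference 2.91, SE 0.17, and 1.36 after the length correction). LPP-AS2, with 13 and 20 fragments in input and 32 and 28 in RIP, gained on LPP, a zyxin family gene, by 2.78 (SE 0.38), and LPP was no longer called after the length correction (adjusted p 0.9198). Its own call (log2 fold change 1.04, adjusted p 0.01498) was lost with library totals (adjusted p 0.4267), with DESeq2 (0.09097), without input replicate 1 (0.1496) and without RIP replicate 1 (0.09469). KCNJ2-AS1 stood apart from KCNJ2, a potassium channel gene, by a difference of 3.63 (SE 0.70), but it had 42 fragments in all and was not called (adjusted p 0.07371), and KCNJ2 had 3 and 4 fragments in RIP, 6.27-fold lower with a counting interval of 2.83 to 16.4.

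**Figure D4:**
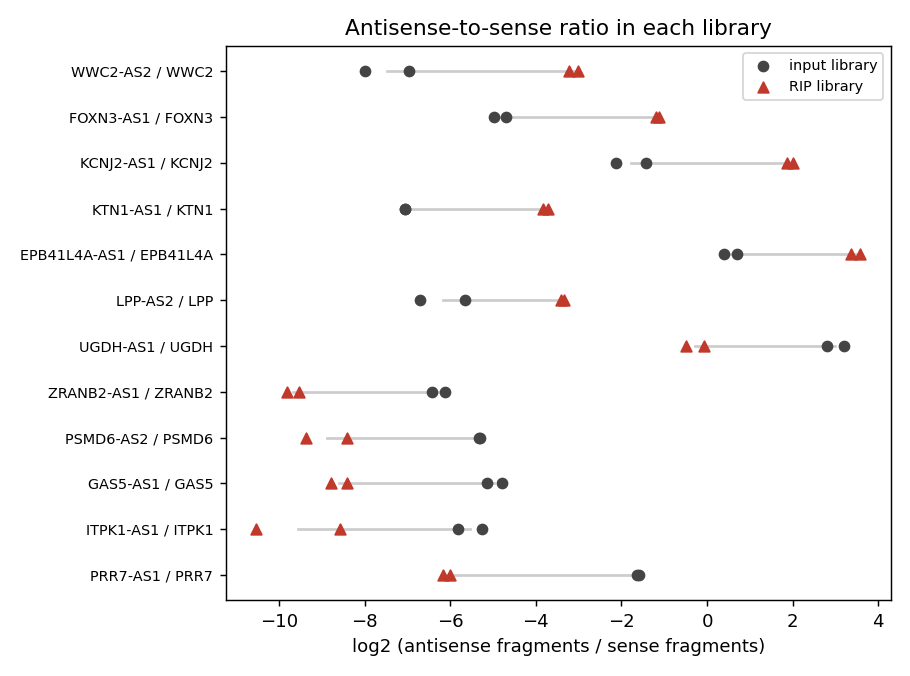
The log2 ratio of antisense to sense fragments in each library is drawn for 12 pairs with the widest differences, with circles for input libraries, triangles for RIP libraries and a grey line between the group means. In every pair shown the triangles stand clear of the circles, to the right in the upper 6 pairs and to the left in the lower 6, with the widest spread within a group in the RIP libraries of ITPK1-AS1.

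Pairs with a shared start region did not all move together. Of the 51 pairs whose windows share bases, 26 gained on the antisense side in both RIP libraries, 18 lost and 7 overlapped, with a median difference of 0.49 that became -0.16 after the length correction. In 15 of them both genes were called the same way, in 6 the antisense gene was higher and the sense gene lower, and in 3 the reverse. Among 86 tested pairs with windows apart, 36 gained and 34 lost, with a median of -0.12 that became -0.66 after the length correction. Over all 195 tested pairs, 43.6% gained and 40.5% lost. By gene bodies, the median difference was 0.14 for the 34 antisense genes inside their partner, -0.26 for the 117 that overlap it and 0.41 for the 42 that do not. After the length correction these medians were -0.88, -0.62 and -0.14, so the first and the last changed sign. Genes that RefSeq now names as divergent transcripts, with the ending DT, numbered 14, of which 7 were higher, 1 lower and 6 not called (median 0.40).

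By role of the sense protein, the difference had a median of 0.33 opposite transcription factor and chromatin genes, where 24 pairs gained and 14 lost. It was 0.55 opposite signalling, membrane, transport and cytoskeleton genes (29 gained, 18 lost) and 0.08 opposite RNA-binding genes (5 gained, 6 lost). Opposite metabolic and mitochondrial genes it was -0.86, with 6 gaining and 14 losing of 21 tested pairs, and opposite genes of replication, cell cycle and protein degradation -1.07, with 4 gaining and 7 losing. After the length correction all 5 medians were below 0, in the order given at -0.42, -0.68, -0.32, -0.43 and -1.30, so the first 3 changed sign. Over all 195 tested pairs, 43.6% gained and 40.5% lost. The groups by role were not tested against each other or against these shares.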

How the data were processed

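RNA of 2 input and 2 SIRT7 RIP libraries was analysed. The submitters' processing notes list cutadapt 1.5, Bowtie2 2.2.6, TopHat2 2.0.13, Cuffdiff 2.2.1 and hg19, while annotation and strand setting are not given there. The deposited estimated counts are the authors' unscaled fragments of each gene, whole numbers in 97.94% of all values and in all 836 values of the antisense genes. The deposited scaled signal, the same fragments divided by a factor per library, and the deposited FPKM values by the authors were used to compute effective lengths and levels per length. Library totals were 18131602 and 17310753 fragments in input and 25655455 and 25998032 in RIP. Intervals cover counting error only, since fragments are not unique molecules.

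Counts were rounded. Genes passing edgeR's filterByExpr (minimum count 10, total 15) went into glmQLFit and glmQLFTest of edgeR 4.0.16 (R 4.3.3) with TMM factors and group alone, adjusted by Benjamini-Hochberg over all 14555 genes at 0.05. CPM values use TMM-scaled library sizes. For the length correction, a lowess curve (span 0.3) of each library's log counts on log2 effective length entered as an offset. The difference within a pair is antisense minus sense log2 fold change, with SEs combined in quadrature. Sequences are RefSeq windows on GRCh38.p14, matched by symbol for 172 antisense genes, by synonym for 35 and for 2 not at all.

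The antisense genes and lists were chosen with earlier results of these data known. Genes named are the 10 most abundant, up to 8 past the threshold with the largest change each way, up to 6 pairs with the widest difference each way, a list of well-known antisense RNAs and the genes beside the threshold, of which some are not reported here. Partner roles, HOX genes and other examples were chosen after values were seen. Alternatives were library totals, DESeq2 1.42.0, other filters, FPKM values, the length correction, a replicate block, a higher fragment threshold and leaving out each library. The table numbers libraries from 0, and replicate 1 of the text rests on that numbering.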

Additional observations from a re-analysis of the deposited data

How the results depend on the processing

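With every alternative, 66 higher, 61 lower and the median of 0.13 among antisense genes, and 85 gaining, 79 losing and the median of 0.04 among pairs, are the values compared. The length correction gave 30 higher, 94 lower, a median of -0.44, 47 pairs gaining and a median difference of -0.45. Library totals gave 24 higher, 111 lower and a median of -0.60. A minimum count of 50 gave 39 lower, 51 pairs gaining and 50 losing. Counting only antisense genes of 400 or more fragments gave 36 higher, 22 lower, a median of 0.27, 32 pairs gaining and 31 losing. The last settings tested fewer genes, 123 and 74 in place of 209. With 100 or more fragments, 61 of 151 genes were higher and 43 lower. The balance of 66 to 61 thus moved with count level, as genes called lower fell further in number. The cause of these shifts was not tested. Leaving out 1 library at a time gave 54 to 59 higher, 53 to 60 lower, medians of 0.04 to 0.14, 90 to 93 pairs gaining, 86 to 90 losing and median differences of -0.05 to 0.13. Of the 127 calls, 18 and 13 were lost without input replicate 1 and 2, and 20 each without RIP replicate 1 and 2, and no called gene changed sign. DESeq2's size factors (67 higher, 61 lower), DESeq2's own test (54 and 48), no filter (64 and 60) and FPKM with a pseudocount of 1 (76 and 60) or 0.1 (77 and 60) gave counts within 1.5 times.

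Pairing of libraries by replicate number was not evident: same-numbered deviations correlated at 0.0409 over 14555 genes. This is a single comparison over genes that share the same libraries, so it cannot decide whether the libraries were paired. The replicate block gave 68 higher, 63 lower, a median of 0.13, 85 pairs gaining and 79 losing and a median difference of 0.04. The block with the length correction gave 31 higher, 97 lower, a median of -0.43, 47 pairs gaining and a median difference of -0.45.

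Named genes changed sign as follows, and the cause was not tested. With the length correction WAC-AS1 became 0.14, PCNA-AS1 -1.89, KTN1-AS1 -0.31 (-0.32 with the block), HOXA-AS3 0.06, HOXB-AS3 -1.18, HOXB-AS5 -0.19, HOXD-AS1 0.04 and HOXD-AS2 -0.31. With library totals PCNA-AS1 became -0.48, TP73-AS1 -0.35, KTN1-AS1 -0.28, TMPO-AS1 -0.04 and HOXB-AS3 -0.08. ZEB1-AS1 ranged from -0.47 to 0.13 with 1 library left out, the latter without input replicate 2. Depth limits genes with under 10 RIP fragments, whose folds carry the wide counting intervals given beside them.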
